A study of Mus musculus with 4 samples.

Results

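The cells described here are 515 leukaemia marrow cells, of 5456 kept cells and 5664 barcodes in all, in which transcripts of Elane were abundant. Elane encodes neutrophil elastase. The cells were chosen by their measured transcripts: Elane made up at least 1% of the unique molecular identifiers (UMIs, the tags that count single transcripts) of the cell, the late granule genes S100a8, S100a9, Ngp and Camp together made up less than 1%, and mitochondrial genes made up at most 10%. These values define the Elane-high cells and are therefore given below as a description only.

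Leukaemic cells had been isolated by their GFP from marrow of 11-week-old mice of strain C57BL6, and single-cell libraries were prepared with the 10x Chromium 3' kit (V2 in the labels). The 4 samples were Hif-1a wt with PBS, Hif-1a KO with PBS, Hif-1a wt with chemotherapy and Hif-1a KO with chemotherapy, 1 sample for each. All 4 shared the leukaemia model, in which c-Kit-positive marrow cells of Hif-1alpha Lox/Lox, CreERT2 mice were given the leukaemia fusion gene MLL-AF9 by retrovirus and were grown as primary leukaemias in wild-type mice before transplantation. From 10 days after transplantation the mice received 1 mg tamoxifen or vehicle for 5 days. Chemotherapy then consisted of 5 days of cytarabine (100 mg/kg) and 3 days of doxorubicin (3 mg/kg), PBS replaced it in the controls, and the marrow was collected 3 days later. The labels do not say which genotype label stands for which of tamoxifen and vehicle, how many mice made up a sample, or whether the primary leukaemias were 1 clone. Host cells without GFP had been removed by the sort.

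Barcodes end in a suffix of 1, 2, 3 or 4, which no label or file header links to one of the samples. The suffixes were treated as 4 samples with no assigned genotype or treatment, each compared only with itself, and no p-value was computed because cells are not replicates. Of 5647 barcode sequences, 17 occurred in more than 1 suffix, and 4 Elane-high cells carried such a sequence.

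Neutrophil granulocytes arise in the marrow from progenitors that pass through a promyelocyte stage, in which serine proteases and myeloperoxidase are made and packed into primary (azurophil) granules. Secondary granule proteins such as lactoferrin and cathelicidin follow at the myelocyte stage, when synthesis of primary granule proteins is shut down. The transcription factors C/EBP-epsilon and Gfi1 act in granulocyte maturation, and Irf8 acts in the monocyte and dendritic cell branch. MLL-AF9 leukaemia cells in mice often resemble granulocyte and monocyte progenitors.

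Elane (ENSMUSG00000020125.7) lies on chromosome 10 from 79886247 to 79888215 on the plus strand (GRCm38, GENCODE vM21). Prtn3, which encodes proteinase 3, is a neighbour on the same strand, from 79874476 to 79883174, and both transcripts were abundant in the Elane-high cells. The RefSeq starts of the pair are 6645 bases apart. The stretches before both starts are shown because each holds the same kinds of motif in the same order. They run over 120 bases each on the plus strand of GRCm38.p6, ending shortly before the RefSeq start, and the last bases of each lie in the first exon of a GENCODE transcript. By the GENCODE gene spans given here, the CAACNG match of Elane and the whole stretch of Prtn3 lie inside the gene. Capitals mark matches to GAGGAAG (a PU.1 or ETS type motif) and to CAACNG (a MYB type motif).
Elane, chr10:79886157-79886276: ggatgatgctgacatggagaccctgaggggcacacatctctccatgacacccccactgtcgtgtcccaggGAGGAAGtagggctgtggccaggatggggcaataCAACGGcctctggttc
Prtn3, chr10:79879512-79879631: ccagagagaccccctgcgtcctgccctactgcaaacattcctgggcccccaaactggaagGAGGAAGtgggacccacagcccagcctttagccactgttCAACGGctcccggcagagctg

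The GAGGAAG match began at position -85 for Elane and -95 for Prtn3, and the CAACNG match at -51 and -56. Of 32851 RefSeq windows of the 250 bases before a start, searched on both strands, 10.6% held GAGGAAG and 29.3% held CAACNG. In the windows of other markers, Ctsg had 1 GAGGAAG and 2 CAACNG matches, Mpo had 2 and 0, Nkg7 had 0 and 3, and Ms4a3 had 0 of both. The C/EBP type pattern TTGCNNAA, found in 9.56% of windows, was in none of these 6 windows. The patterns were chosen after the sequences had been read, and a match is a description of letters, not a binding site.

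Elane-high cells were more frequent among the cells of suffixes 1 and 2 than among those of suffixes 3 and 4. They made up 160 of 1174 kept cells in suffix 1 (13.6%, exact binomial 95% interval 11.7 to 15.7) and 231 of 1251 in suffix 2 (18.5%, 16.4 to 20.7). In suffix 3 they were 64 of 1625 (3.94%, 3.05 to 5.00) and in suffix 4 they were 60 of 1406 (4.27%, 3.27 to 5.46). The intervals of suffixes 1 and 2 do not overlap those of suffixes 3 and 4. All intervals here cover counting error only and carry no error between samples. What sets the suffixes apart was not tested, because their samples are not known.

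The limit of 1% lay on a slope of the Elane distribution, not in a gap. Among kept cells under the limit for late granule genes, 13.6%, 21.2%, 8.53% and 13.1% of the cells in suffixes 1 to 4 had Elane at 0.5 to under 1% of their UMIs. The cells with no Elane UMI made up 19.1%, 10.2%, 30.7% and 28.9%. Elane-high cells with at least 2% numbered 46, 64, 2 and 4, and those with at least 4% numbered 1, 3, 0 and 0. The median Elane share of Elane-high cells was 1.47%, 1.51%, 1.25% and 1.27%, against 0.0637%, 0.188%, 0.0338% and 0.0485% in the other kept cells of the same suffix.

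**Figure D1:**
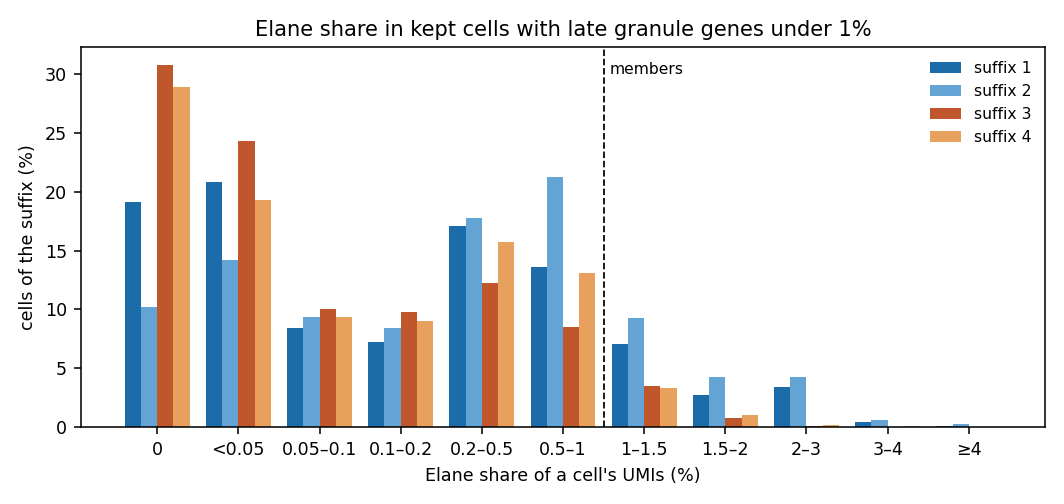
Share of kept cells (percent, under the limit for late granule genes) in classes of Elane as a percentage of the UMIs of the cell, by barcode suffix. The classes differ in width, and the dashed line is the limit of 1%, with the Elane-high cells (members) to its right. Each class above the limit holds fewer cells than that from 0.5 to under 1%, and suffixes 3 and 4 have 2 and 4 cells at 2% or more.

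Levels of other markers are given once for the cells next to the limit. The 110 cells at 0.9 to under 1% had 301.5 CPM (UMIs of a gene per 1000000 UMIs of the cells) of Ms4a3, and the 74 cells at 1 to under 1.1% had 274.6 CPM. Mpo stood at 3210 CPM outside and 2867 CPM inside, Prtn3 at 3478 and 3736 CPM, and Cebpe at 184.1 and 181.3 CPM. Nkg7 stood at 128.9 CPM outside and 100.2 CPM inside, Ctsg at 3854 and 3661 CPM, and Cd34 at 81.7 and 82.9 CPM. Gfi1, the scarcest of these markers, had the widest relative gap, at 24.2 and 37.99 CPM. No counting interval is given for these levels, so a step at the limit cannot be read from Gfi1. At the other limit, 53 of the 568 kept cells with Elane at 1% or more were left out because late granule genes reached 1%. No late granule UMI was found in 93, 131, 0 and 9 Elane-high cells of suffixes 1 to 4.

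Elane-high cells were somewhat deeper than the other kept cells. Their median depth was 7402, 7533, 8182 and 6730 UMIs in suffixes 1 to 4, against 5870, 6145, 5183 and 5254 UMIs in the others. They had medians of 2232, 2193, 2138 and 1938 genes per cell, against 2004, 2031, 1680 and 1722. Mitochondrial UMIs had medians of 2.45% to 2.87% in Elane-high cells and 2.53% to 2.88% in the others. The summed UMIs of the Elane-high cells were 1183120, 1762869, 521891 and 429440, so that a gene with no UMI has an upper limit (3 counts) of 2.54, 1.70, 5.75 and 6.99 CPM.

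The Elane-high cells were first compared with all other kept cells of their suffix. A gene is called higher or lower below where the median over suffixes of the log2 ratio of (CPM + 1) reached 1.5-fold, all usable suffixes went the same way, and the pooled counting interval excluded 1. Of 8162 genes with a mean of at least 5 CPM, 182 were higher (2.23%) and 497 were lower (6.09%). The median log2 ratio over all tested genes was -0.09. Higher genes were 26.8% of those called, or 39.0% with totals scaled by the median of ratios. Calls describe size and direction in these cells and are not tests.

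The granulocyte precursor markers stood out by size. Of 9 tested markers other than Elane, 8 were higher and none was lower, against 2.23% of all genes called higher, and their median log2 ratio was 0.91. Ms4a3, a membrane protein gene of granulocyte and monocyte progenitors, stood at 968, 844, 383 and 228 CPM in Elane-high cells of suffixes 1 to 4 and at 185, 202, 73.0 and 60.0 CPM in the others (median log2 ratio 2.22, range 1.91 to 2.38). The Elane-high cells of each suffix were above all 4 values of the others, and the share of all genes with such a gap is not given here. The pooled ratio was 4.61 (counting interval 4.38 to 4.85).

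Nkg7, which encodes a granule membrane protein of cytotoxic lymphocytes and is also transcribed in granulocyte precursors, stood at 341.5, 382, 76.6 and 16.3 CPM against 69.7, 85.2, 11.8 and 4.43 CPM (median log2 ratio 2.21, range 1.67 to 2.60). It was higher in each suffix, although the level in suffix 4 rests on 7 UMIs (interval 6.55 to 33.6 CPM) and lies below the level of other cells in suffixes 1 and 2. Ms4a3 and Nkg7 were thus higher in each suffix, although Nkg7 rests on few UMIs in suffix 4. Both were named with the label of these cells with earlier results of these data known, so this is a description only. Elane, the other marker named with the label, is a gene of the rule.

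Mpo encodes myeloperoxidase, the main enzyme of primary granules, and lies on chromosome 11 from 87793581 to 87804413. It stood at 5942, 5558, 2380 and 1984 CPM in Elane-high cells and at 1475, 1687, 336 and 363 CPM in the others (median log2 ratio 2.23, range 1.72 to 2.82). The ratio was greater in suffixes 3 and 4, where both levels were lower than in suffixes 1 and 2.

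The other serine proteases of primary granules were higher by smaller ratios. Prtn3 stood at 5068, 5310, 3681 and 3791 CPM against 1935, 2511, 1830 and 2044 CPM (median log2 ratio 1.04). Ctsg, which encodes cathepsin G and lies on chromosome 14 from 56099881 to 56102574, stood at 5859, 5654, 2801 and 2743 CPM against 3317, 3417, 1231 and 1376 CPM (0.91). Unlike Prtn3, it was below the level of other cells in suffixes 1 and 2 when Elane-high cells of suffixes 3 and 4 are set beside them. Prss57, a further neutrophil serine protease, stood at 432, 471, 333 and 284 CPM against 263, 294, 187 and 179 CPM (0.69). Of 12 tested primary granule genes, 5 were higher (Mpo, Prtn3, Ctsg, Prss57 and Cd63) and none was lower, against 2.23% of all genes called higher. The median of the list was still -0.10, near the -0.09 of all genes.

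Cd63, which encodes a tetraspanin of the granule membrane, stood at 574, 699, 652 and 543 CPM against 228, 261, 265 and 234 CPM (median log2 ratio 1.31). Its level differed little between suffixes, unlike that of Mpo. Of the 19 genes of granule packaging and protease control, 3 were higher and none was lower, against 2.23% of all genes called higher. Srgn, which encodes the proteoglycan serglycin that holds proteases in granules, stood at 2263, 2519, 1966 and 2261 CPM against 1269, 1324, 899 and 979 CPM (1.03). Serpinb1a, an inhibitor of neutrophil serine proteases, stood at 750, 772, 506 and 412 CPM against 585, 478, 196 and 173 CPM (0.97). Cst7, a cystatin that inhibits lysosomal cysteine proteases, had a median log2 ratio of 0.98, and the protease inhibitor gene Slpi had -0.27 and was not called.

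**Figure D2:**
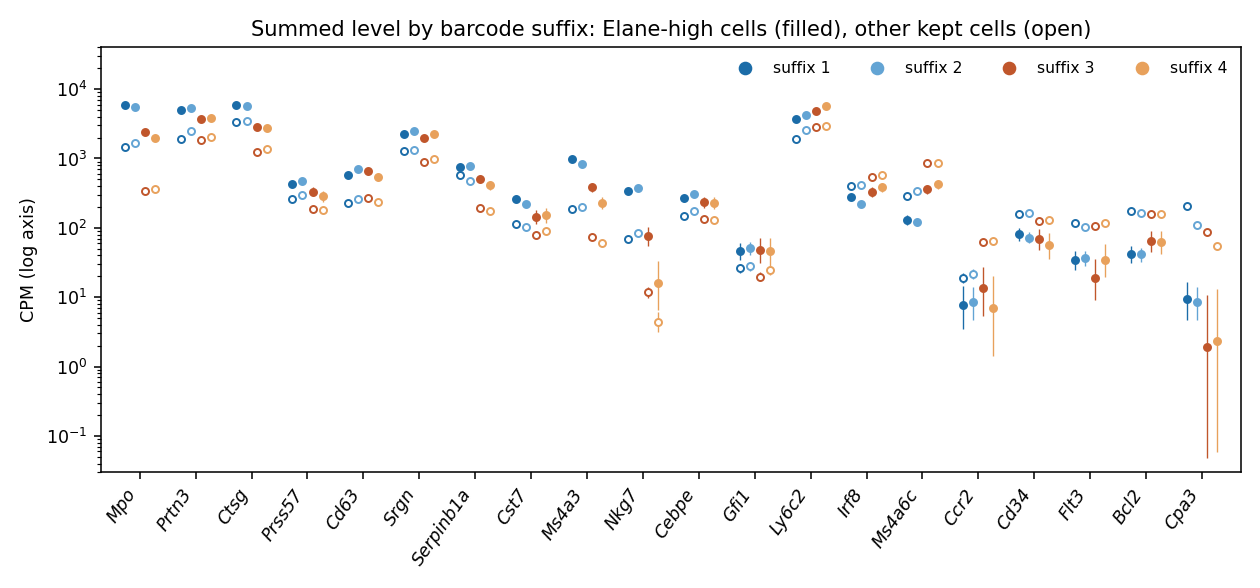
Levels of 20 genes in CPM (log axis) in Elane-high cells (filled) and other kept cells (open) of each barcode suffix, with exact Poisson 95% intervals for counting error. Filled points of Ms4a3, Mpo, Prtn3 and Ctsg lie above the open points of the same suffix, while those of Cpa3, Flt3 and Ms4a6c lie below.

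Among 26 tested myeloid transcription factors, 4 were higher and 10 lower, against 2.23% and 6.09% of all genes. Cebpe, the gene of C/EBP-epsilon, stood at 266, 304, 236 and 228 CPM against 148, 174, 133 and 129 CPM (median log2 ratio 0.82, range 0.80 to 0.84), which is nearly the same ratio in each suffix. Gfi1, a repressor needed for granulocyte formation, stood at 45.6, 51.1, 47.9 and 46.6 CPM against 26.3, 28.0, 19.8 and 24.4 CPM (0.87). Tfec (0.91), a relative of MITF, and the circadian repressor gene Per3 (1.96) were the other higher members. With the Elane minimum at 0.5%, Cebpe had a log2 ratio of 0.48 and was not called.

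Irf8, a factor of the monocyte and dendritic branch, was lower, at 279, 219.5, 330 and 386.5 CPM against 397, 414, 536 and 580 CPM (median log2 ratio -0.64). The call of Irf8 was lost with the Elane minimum at 0.5% (-0.28), with median of ratios scaling (-0.56) and against cells low in monocyte and late granule genes (-0.14). Irf8 is on the monocyte list by which those compared cells were chosen, so a smaller gap there was partly set in advance. Gata2, a factor of stem, mast and basophil cells, stood at 8.45, 9.08, 3.83 and 11.6 CPM against 36.5, 31.5, 31.7 and 24.9 CPM (-1.84). Satb1, a chromatin organiser active in lymphoid and stem cells, had -1.93. Spi1, which encodes PU.1, had 0.03 and was not called.

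Of 17 tested stem and progenitor genes, 9 were lower and 1 was higher (Cd27, 0.65), against 6.09% of all genes called lower. Among the 7 without a call were Kit (0.41), Adgrl4 (0.09), Lyl1 (-0.11), Lmo2 (-0.32), Erg (-0.33) and Egfl7 (-0.43). Flt3, a cytokine receptor of early progenitors, stood at 34.7, 36.9, 19.2 and 34.9 CPM in Elane-high cells and at 117, 103, 105 and 117 CPM in the others (median log2 ratio -1.72). Cd34, a progenitor surface antigen, stood at 81.1, 72.6, 69.0 and 55.9 CPM against 160, 164, 127 and 130 CPM (-1.07). Bcl2, an antiapoptotic gene, stood at 41.4, 41.4, 65.2 and 62.9 CPM against 177, 163, 160 and 159 CPM (-1.64). The values of Elane-high cells lay below all values of the others for these 3 genes, and the share of all genes with such a gap is not given here. Flt3, Bcl2 and Mef2c (-1.03) were also among the 5 of 21 MLL fusion leukaemia genes called lower, of which none was higher.

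Of 21 tested monocyte genes, 15 were lower, 1 was higher and 5 were not called, against 6.09% of all genes called lower and 2.23% higher. The list had a median of -1.20. The genes without a call were Fn1 (-1.92), Ly86 (-0.53), Mpeg1 (-0.43), Cybb (-0.11) and Cd14 (0.67). S100a6, a calcium-binding protein gene, stood at 5.92, 7.37, 24.9 and 4.66 CPM against 38.2, 60.2, 295 and 223 CPM (-3.19). Ccr2, the chemokine receptor of classical monocytes, stood at 7.61, 8.51, 13.4 and 6.99 CPM against 19.0, 21.8, 63.5 and 64.2 CPM (-1.71), and Ms4a6c stood at 131, 121, 358 and 429 CPM against 285, 337, 875 and 848 CPM (-1.20). The higher member was Ly6c2, a surface antigen shared by monocytes and granulocyte precursors, at 3749, 4255, 4823 and 5763 CPM against 1881, 2600, 2868 and 2953 CPM (0.86). Because of Ly6c2, the summed monocyte list stood at 4849 to 7663 CPM in Elane-high cells and at 3640 to 7510 CPM in the others. At an Elane minimum of 2%, the call of Ly6c2 was lost (0.53).

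Markers of T and NK cells, megakaryocytes and erythroid cells were scarce. The 10 T and NK cell genes in the table were all at 0 in Elane-high cells, apart from Nkg7, which was kept on another list. Megakaryocyte genes summed to 0 to 9.31 CPM, with 7 of 10 at 0, and erythroid genes to 3.83 to 11.4 CPM, with 9 of 12 at 0. B cell genes summed to 70.9 to 85.7 CPM, against 66.9 to 89.9 CPM in other cells. Basophil and mast cell genes summed to 23.3 to 87.9 CPM, against 99.2 to 424 CPM in the others, and 9 of 14 were at 0. Cpa3, which encodes the mast cell carboxypeptidase, stood at 9.30, 8.51, 1.92 and 2.33 CPM against 204, 108, 88.2 and 55.5 CPM (-4.20). Dendritic and MHC class II genes summed to 312 to 423.8 CPM, against 433.7 to 593.3 CPM in the others. Macrophage genes summed to 141 to 239.5 CPM, against 157 to 496 CPM in the others. Of 7 tested macrophage genes, 4 were lower and 2 were higher, against 6.09% and 2.23% of all genes. The 2 higher genes were Vcam1 (2.02) and the iron exporter gene Slc40a1 (1.62).

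Elane UMIs were also found under other barcodes. After each cell had been thinned to 2000 UMIs, 63.5%, 77.5%, 54.8% and 59.1% of the other kept cells had an Elane UMI (78.0%, 87.5%, 68.7% and 69.5% before thinning). In cells with UMIs of both monocyte receptor genes Csf1r and Ccr2, with median depths of 6512, 6471, 4756 and 4912 UMIs, 13 of 13, 19 of 21, 63 of 142 and 54 of 128 cells had an Elane UMI. Whether these UMIs came from the cells themselves or from free RNA was not tested. An Elane UMI by itself therefore does not mark the Elane-high cells, which were chosen by its amount. For Ms4a3, 68.8%, 62.9%, 39.1% and 23.3% of thinned Elane-high cells had a UMI, against 7.69%, 23.8%, 0% and 0.781% of the cells with Csf1r and Ccr2. Leaving out cells under 2000 UMIs removed 0, 2, 0 and 0 Elane-high cells. Elane-high cells held 55.7%, 55.9%, 25.8% and 24.3% of all Elane UMIs of the kept cells of their suffix.

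Several strongly changed genes were scarce or lay outside the lists. Rbp4, which encodes a retinol carrier, stood at 11.8, 14.2, 5.75 and 27.9 CPM against 1.24, 1.98, 1.17 and 1.85 CPM (2.43), the highest ratio of all called genes, on 14, 25, 3 and 12 UMIs. Its call was lost on thinned cells (2.49), as were those of Far2 (2.17 in all cells), Dmkn (2.12) and Per3, and the calls of Far2 (0.93) and Dmkn (1.82) were lost among cells without mitotic UMIs. Hsd11b1, which encodes an enzyme that reactivates glucocorticoids, stood at 42.3, 38.01, 49.8 and 32.6 CPM against 5.57, 7.16, 18.5 and 19.6 CPM (1.82), and Vcam1, an adhesion molecule gene, had 2.02. At the low end, Itgb7, an integrin subunit gene, stood at 4.23, 4.54, 17.2 and 11.6 CPM against 58.5, 64.6, 154 and 135 CPM (-3.47). Npy, which encodes neuropeptide Y, had no UMI in Elane-high cells and stood at 29.7, 10.4, 9.99 and 8.004 CPM in the others.

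Secondary granule genes gave a mixed picture. Of 17 tested members of the list, which excludes the genes of the rule, 1 was higher (Ltb4r1, the receptor of leukotriene B4, 0.78) and 4 were lower. Over all genes, 2.23% were called higher and 6.09% lower. Ltf, the lactoferrin gene, had UMIs in Elane-high cells of suffix 3 alone (3.83 CPM), against 4.18, 5.48, 120 and 66.3 CPM in the others, and Mmp8, the neutrophil collagenase gene, was at 0 against 1.70, 2.44, 26.7 and 25.9 CPM. Ifitm6 (-1.90) and Mmp9 (-2.50) were the other lower members. By suffix their ratios were -0.93, -1.22, -2.72 and -2.57 for Ifitm6, and -0.83, -1.78, -3.22 and -4.18 for Mmp9. The other kept cells include the late granule cells. Against cells low in monocyte and late granule genes, the median of the list was 1.43 in place of -0.36. Those cells were chosen in part by late granule genes, so a higher median there was largely set in advance. How much of the shift came from late granule cells alone was not tested.

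Genes of G2 and M phase were lower in part. Of 51 tested, 8 were lower and none was higher, against 6.09% and 2.23% of all genes, with a list median of -0.38. Top2a, a topoisomerase gene of dividing cells and a target of doxorubicin, stood at 76.9, 68.1, 78.6 and 44.2 CPM against 127, 108, 101.3 and 116 CPM (-0.69), and its call was lost with the Elane minimum at 0.5% (-0.51), without a mitochondrial maximum (-0.56) and as a mean over cells (-0.42). Of 42 S phase genes, 1 was lower (Rad51ap1, -0.71), a smaller share than that of all genes. The call of Rad51ap1 was lost with the Elane minimum at 0.5% (-0.37) and as a mean over cells (-0.24), and the ratio was 0.54 among cells without mitotic UMIs. The share of cells with a UMI of Top2a, Mki67, Ccnb2, Rrm2 or Pcna, on cells thinned to 2000 UMIs, was 80 of 160, 97 of 229 (42.4%), 19 of 64 (29.7%) and 15 of 60 (25.0%) in Elane-high cells (exact binomial intervals in percent 42.0 to 58.0, 35.9 to 49.0, 18.9 to 42.4 and 14.7 to 37.9). It was 49.1%, 44.3%, 26.7% and 27.6% in the other cells, so that each interval held the value of the other cells. With cells thinned to 1500 UMIs this was not so in suffix 3, where the share was 37.5% (25.7 to 50.5) in Elane-high cells and 22.5% in the others. Without thinning the shares were 81.2%, 63.2%, 56.2% and 51.7% against 67.0%, 63.4%, 40.0% and 44.0%, in cells that also differed in depth.

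Other programs were near the level of all genes or lower. Over all genes, 2.23% were called higher and 6.09% lower. None of 81 ribosomal protein genes, 25 nucleolar genes, 7 NADPH oxidase genes or 8 genes of the unfolded protein response was called. Of 52 genes of folding and secretion in the endoplasmic reticulum, 1 was higher, a share near that of all genes. It was Fkbp11, a prolyl isomerase gene of secretory cells, at 93.0, 123, 57.5 and 48.9 CPM against 45.4, 66.4, 23.8 and 21.2 CPM (1.09). Of 21 interferon response genes, 6 were lower, among them Ifi27l2a (-2.18), Ifitm3 (-2.17) and Irf7 (-1.10), and none was higher. The calls of all 3 were lost against cells low in monocyte and late granule genes, where the log2 ratio was -1.60 for Ifi27l2a, 0.14 for Ifitm3 and -0.07 for Irf7. Ifitm3 is itself on the monocyte list by which those compared cells were chosen, so its change was partly set in advance. The call of Ifitm3 was also lost on thinned cells (-2.66), that of Irf7 with the Elane minimum at 2% (-0.35), and both among cells without mitotic UMIs (-2.54 and -2.38). Of 20 cytokine and chemokine receptor genes, 10 were lower and 1 was higher (Ifngr1, a chain of the interferon gamma receptor, 0.66). The call of Ifngr1 was lost with the Elane minimum at 0.5% (0.55) and among cells without mitotic UMIs (0.54).

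HIF-1 induced genes, which respond to low oxygen, showed 1 lower member of 26, against 6.09% of all genes, and a list median of 0.08. That member, Ndrg1, stood at 9.30, 9.08, 13.4 and 16.3 CPM against 27.7, 24.1, 40.2 and 46.6 CPM (-1.47). Hif1a itself, the gene deleted in the knockout, stood at 39.7, 36.9, 24.9 and 25.6 CPM in Elane-high cells and at 38.2, 34.7, 29.8 and 26.6 CPM in the others (0.00). A 3' count can persist after deletion of an exon elsewhere in the gene, so these levels say nothing of the genotype.

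**Figure D3:**
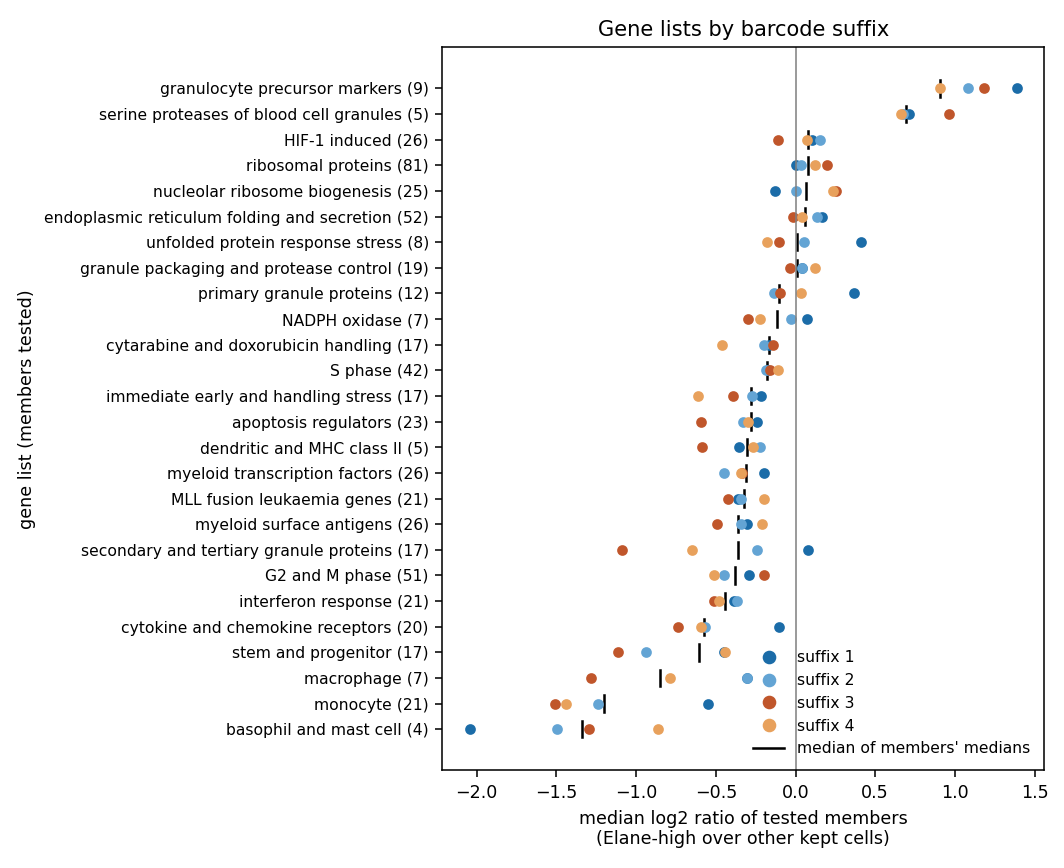
Median log2 ratio of Elane-high over other kept cells for each gene list, by barcode suffix, for lists with at least 4 tested genes (number in brackets), with a black bar at the median over the genes' own medians. Granulocyte precursor markers lie near 1 in each suffix (0.91 to 1.39), and monocyte genes lie at -0.55 to -1.51.

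The second comparison set Elane-high cells beside 1131 cells (298, 286, 315 and 232 by suffix) that had a UMI of Cebpe but Elane under 0.5% and late granule genes under 1%. Only the compared cells were chosen by Cebpe. The Elane-high cells were not required to have a Cebpe UMI, so Cebpe was not held equal on both sides. Of 8134 genes, 162 were higher (1.99%) and 403 were lower (4.95%). Higher genes were 28.7% of those called, or 40.6% with TMM factors and 43.9% with the median of ratios. Of 8 tested granulocyte precursor markers, 7 were higher, with a list median of 1.48. Cebpe was used to choose the compared cells and has no count here.

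Ms4a3 and Fcnb differed most among these markers. Ms4a3 stood at 968, 844, 383 and 228 CPM against 143, 125, 13.7 and 17.6 CPM (3.19). Fcnb, which encodes ficolin B, a lectin of granulocyte precursors, stood at 25.4, 35.7, 142 and 149 CPM against 0.538, 2.20, 25.9 and 48.7 CPM (2.97). It had not been called against all other kept cells, where the comparison included late granule cells rich in Fcnb. Gfi1 had a log2 ratio of 0.37 and Prss57 of 0.47, and neither was called.

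Some genes outside the lists were higher in this comparison as well. Lect1, which encodes chondromodulin, had 3.77, Mrgpra2b, a G protein-coupled receptor gene, stood at 43.1, 35.7, 13.4 and 9.31 CPM against 0.538, 0.549, 1.52 and 2.03 CPM (3.54), and Wfdc21, a small secreted protein gene, stood at 25.4, 38.01, 17.2 and 6.99 CPM against 0.538, 1.099, 2.54 and 0.676 CPM (3.23). The call of Wfdc21 was lost on thinned cells (2.42). For Lect1, Mrgpra2b and Wfdc21 the ratios moved by over 1.5 times when a suffix was left out: without suffix 1 or without suffix 2 those of Mrgpra2b and Wfdc21 were 2.51 and 2.37, and without suffix 3 or suffix 4 they were 4.57 and 4.10, while that of Lect1 was 3.05 without suffix 1 or 3 and 4.501 without suffix 2 or 4. Chil3, a chitinase-like protein gene of later precursors, stood at 11.8, 23.8, 195 and 1162 CPM against 1.08, 3.85, 152 and 574 CPM (1.69). Its log2 ratios by suffix were 2.63, 2.36, 0.36 and 1.01, so that the median moves to 1.01 without suffix 1 or 2 and to 2.36 without suffix 3 or 4. Over all genes of this comparison, 1.99% were called higher and 4.95% lower. Of 13 secondary granule genes, 3 were higher and none was lower. Stem and progenitor genes were 1 higher and 8 lower of 17, and monocyte genes 1 higher and 9 lower of 20.

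The third comparison used the 303 late granule cells, in which S100a8, S100a9, Ngp and Camp made up at least 1% of UMIs. They numbered 12, 21, 159 and 111 by suffix, so that suffix 1 was too thin and the ratios rest on suffixes 2, 3 and 4. Of 7942 genes, 1035 were higher in Elane-high cells (13.03%) and 537 were lower (6.76%). The median over all genes was 0.18, a shift that fell to 0.06 with TMM factors, 0.04 with the median of ratios and 0.00 with totals without the genes of the rule. Ratios in this comparison are to be read against that shift. Higher genes were 65.8% of those called, and 51.7%, 48.4% and 43.2% with those 3 scalings.

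Primary granule genes were divided between these classes. Mpo stood at 5558, 2380 and 1984 CPM in Elane-high cells of suffixes 2 to 4 and at 3687, 434 and 94.4 CPM in late granule cells (2.45). The gap was small in suffix 2 and wide in suffixes 3 and 4: without suffix 2 the ratio was 3.42, and without suffix 4 it was 1.52. Ctsg stood at 5654, 2801 and 2743 CPM against 3716, 662 and 387 CPM (2.08, or 1.34 without suffix 4). Prtn3 was not called, since it was at 5310 against 6514 CPM in suffix 2 and at 3681 and 3791 against 1567 and 1335 CPM in suffixes 3 and 4. Elane, a gene of the rule, was still at 15266, 4533 and 2772 CPM in late granule cells, against 16807, 13265 and 13778 CPM in Elane-high cells. Of the 303 late granule cells, 53 had Elane at 1% or more of their UMIs. In suffix 2 the classes thus differed little in Elane.

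Secondary granule genes were lower in Elane-high cells than in late granule cells. Both classes had been defined by S100a8, S100a9, Ngp and Camp, so a lower level of this kind of gene was largely set in advance. Of 18 secondary and tertiary granule genes, 17 were lower, against 6.76% of all genes, with a list median of -3.71. Lcn2, the lipocalin of secondary granules, stood at 94.7, 105 and 168 CPM against 1530, 4631 and 5570 CPM (-5.05). Fcnb stood at 35.7, 142 and 149 CPM against 430, 1343 and 1173 CPM (-3.23), and Cebpe at 304, 236 and 228 CPM against 627, 497 and 640 CPM (-1.07). Ms4a3 stood at 844, 383 and 228 CPM against 1385, 505 and 458 CPM (-0.71), a call that was lost without suffix 4 (-0.56) and on thinned cells (-0.73), and the ratio was 0.16 with the Elane minimum at 2%. Of 7 NADPH oxidase genes, 5 were lower, among them Cybb (-1.75), the catalytic subunit gene.

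Part of the genes of growth were higher in Elane-high cells than in late granule cells. Over all genes of this comparison, 13.03% were called higher and 6.76% lower. Of 25 nucleolar genes, 18 were higher and none was lower, and 12 to 14 were higher under the other 3 scalings. The list median was 0.84, or 0.64 to 0.77 under the others. Of 82 ribosomal protein genes, 53 were higher, but 8 to 18 under the other scalings, at list medians of 0.43 to 0.50 against 0.65. Npm1, which encodes nucleophosmin, stood at 1551, 1372 and 1311 CPM against 714, 623 and 555 CPM (1.14). Irf8 stood at 219.5, 330 and 386.5 CPM against 36.4, 49.7 and 48.0 CPM (2.70), and Cd34 at 72.6, 69.0 and 55.9 CPM against 7.29, 9.75 and 4.80 CPM (3.15). With the Elane minimum at 2%, where suffix 2 alone is used, Cd34 had 2.20 and was not called. Of 50 genes of G2 and M phase, 19 were lower in Elane-high cells and none was higher, and 23 were lower under each of the other scalings.

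The fourth comparison used 2817 cells with a UMI of Cd34 or Flt3, Elane under 0.5% and late granule genes under 1% (647, 578, 856 and 736 by suffix). Of 8176 genes, 260 were higher in Elane-high cells (3.18%) and 667 were lower (8.16%), and higher genes were 28.0% of those called, or 43.5% with the median of ratios. All 9 tested granulocyte precursor markers were higher, with a list median of 1.56. Nkg7 stood at 341.5, 382, 76.6 and 16.3 CPM against 52.2, 44.6, 1.72 and 1.99 CPM (2.88), and Gfi1 had 1.28. Ms4a3 stood at 968, 844, 383 and 228 CPM against 133, 126, 5.15 and 8.64 CPM (3.71, or 4.57 without suffix 1 or 2 and 2.85 without suffix 3 or 4). Of 13 secondary granule genes, 7 were higher and none was lower. Mogat2 and Dgat2, which encode enzymes of acylglycerol synthesis, had 4.09 and 2.97. Of 52 genes of G2 and M phase, 16 were lower and none was higher, and 8 to 15 were lower under the other scalings.

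Set side by side, the 4 classes give an order of levels for each gene, without any order in time having been measured. The class with Cebpe and the class with Cd34 or Flt3 share cells: 766 cells were in both, of 1131 and 2817. Ms4a3, given above for the first 3 classes, was at 1755, 1385, 505 and 458 CPM in late granule cells, with the late granule cells of suffix 1 numbering 12. In suffixes 3 and 4, Mpo was at 181 and 237.5 CPM in cells with Cd34 or Flt3, at 2380 and 1984 CPM in Elane-high cells and at 434 and 94.4 CPM in late granule cells. Mpo and Ctsg thus had their highest level of the 4 classes in Elane-high cells of each suffix. Cebpe was above its Elane-high level both in late granule cells and in the cells with Cebpe, which had been chosen by it. Irf8 was lowest in late granule cells, at 0, 36.4, 49.7 and 48.0 CPM.

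**Figure D4:**
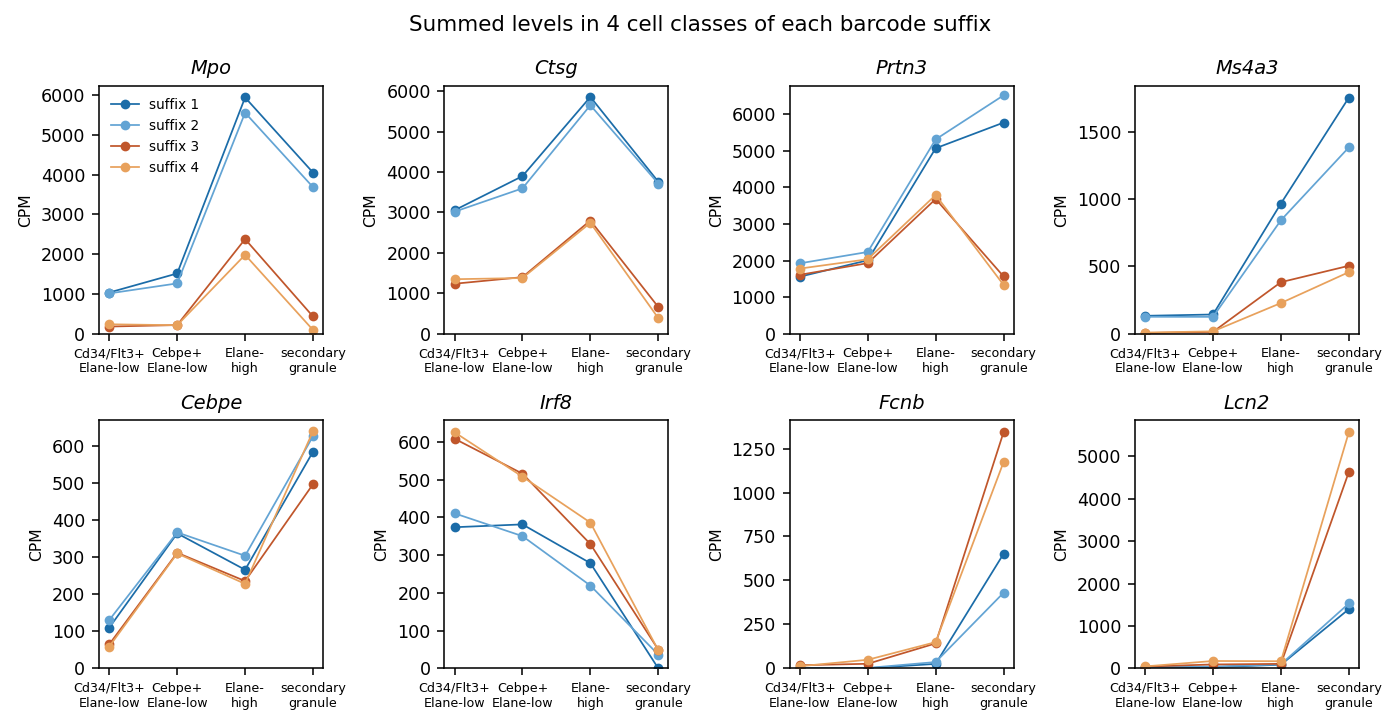
Levels in CPM of 8 genes in 4 classes of cells, by barcode suffix, with the late granule cells shown as secondary granule and lines joining the classes of a suffix. Mpo and Ctsg are highest in Elane-high cells of each suffix, while Lcn2 and Fcnb are highest in the late granule cells, of which suffix 1 holds 12.

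Elane-high cells also differed among themselves. Cells with Elane at 2 to under 4% of UMIs (45 and 61) were compared with those at 1 to under 2% (114 and 167) in suffixes 1 and 2, since suffixes 3 and 4 had 2 and 4 cells in the upper range. Of 7962 genes, 286 were higher (3.59%) and 289 were lower (3.63%), and the median of all genes was -0.05. This split uses the same transcript as the rule, and 2 suffixes carry it. Without suffix 2, 187 genes were lower.

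Granulocyte precursor markers were higher in the upper range, 6 of 9 with none lower, against 3.59% of all genes called higher. Ms4a3 went from 685 to 1607 CPM in suffix 1 and from 597 to 1555 CPM in suffix 2 (1.305), and Cd63 from 373.5 to 1058 and from 531 to 1177 CPM (1.32). Cebpe went from 215 to 394 and from 258 to 440 CPM (0.82). Mpo went from 5195 to 7660 and from 4801 to 7677 CPM (0.62), a smaller ratio than those of Ms4a3 and Cd63, and Prtn3 (0.58) and Ctsg (0.42) were not called.

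Some later genes were higher as well. Fcnb went from 10.7 to 62.7 and from 20.7 to 80.0 CPM (2.17), Wfdc21 from 13.1 to 56.8 and from 4.60 to 135.5 CPM (3.32), and Chil3 from 3.58 to 32.9 and from 4.60 to 42.2 CPM (2.92). Of 12 secondary granule genes, 5 were higher and none was lower, against 3.59% and 3.63% of all genes. Irf8 went the other way, from 373.5 to 50.8 and from 284.5 to 35.5 CPM (-2.91). Cd34 went from 95.5 to 47.8 and from 85.1 to 37.8 CPM (-1.07), and Slpi from 3700 to 2285 and from 4003 to 2294 CPM (-0.75). Of 16 monocyte genes, 8 were lower and none was higher.

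**Figure D5:**
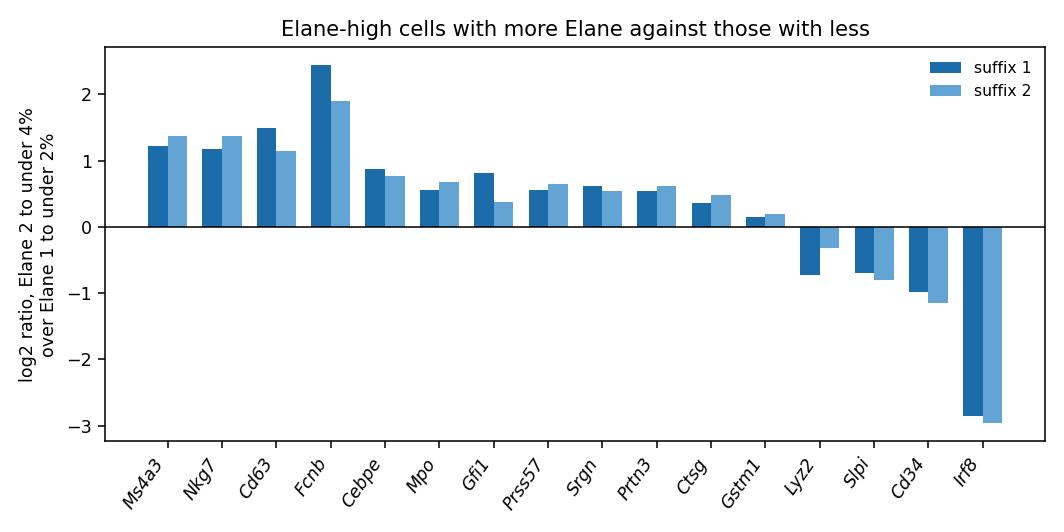
Log2 ratio of (CPM + 1) in Elane-high cells with Elane at 2 to under 4% of UMIs over those at 1 to under 2%, for 16 genes in suffixes 1 and 2. Irf8 lies near -2.91, Fcnb near 2.17 and Ms4a3 near 1.305.

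Correlations with Elane were also computed across single Elane-high cells of a suffix. Among 1300 genes with a mean of at least 100 CPM, Srgn had the highest median Pearson r with Elane (0.48, with 0.49, 0.50, 0.19 and 0.48 by suffix, over 160, 231, 64 and 60 cells), followed by Ms4a3 (0.44), Prtn3 (0.39), Arhgdib (0.32) and Cd63 (0.31). Irf8 had the lowest (-0.35, with -0.59, -0.44, -0.21 and -0.26), and the translation genes Rps15a (-0.28), Eef2 (-0.26) and Rpl27a (-0.26) were also near the low end. Nkg7 had 0.42, 0.44, 0.04 and -0.17 by suffix. Cells of a suffix share a library and differ in depth, so these values are a description. Prtn3 had an r of 0.53 and 0.62 in suffixes 1 and 2 but 0.26 and 0.0049 in suffixes 3 and 4.

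Cebpe and the immature markers were also read cell by cell. On thinned cells, 62 of 160, 87 of 229, 23 of 64 and 18 of 60 Elane-high cells had a UMI of Cebpe but none of Cd34 or Flt3. A UMI of Cd34 or Flt3 without Cebpe was found in 18, 24, 7 and 12 cells, both kinds in 10, 15, 0 and 2, and neither in 70, 103, 34 and 28. At 2000 UMIs per cell a missing UMI does not show that a gene was silent.

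The Elane-high cells of suffixes 1 and 2 differed from those of suffixes 3 and 4 in more than their number. Nkg7, Ms4a3 and Mpo were more abundant in suffixes 1 and 2, as given above, and so was Phgdh, the enzyme gene that starts serine synthesis (152, 132, 34.5 and 37.3 CPM). Clec4a2, a lectin receptor gene, was more abundant in suffixes 3 and 4 (22.8, 38.01, 229.9 and 235 CPM). Lyz2, which encodes lysozyme, stood at 664, 596, 1564 and 2929 CPM. The other kept cells showed the same pattern for each of these genes: Phgdh was at 129, 99.5, 23.2 and 24.9 CPM, Clec4a2 at 6.97, 10.5, 122 and 146 CPM and Lyz2 at 375, 732, 4607 and 5415 CPM. These genes were chosen after their values had been seen. Genotype, treatment and library cannot be told apart here.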

How the data were processed

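The authors deposited 1 table of raw UMI counts per gene symbol and barcode, whole numbers with no normalization. The 10x 3' V2 kit is named in the labels' protocols. Per the submitters' processing notes, Cell Ranger 1.3 and Seurat 2.3.4 were used with build mm10, and the series' design text names an earlier Seurat version. The gene annotation behind the table: not given in the sources used here.

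UMIs were summed per suffix and class wherever each of both sides had 20 cells or more. Ratios are log2 of (CPM + 1), with a minimum mean of 5 CPM and the call rule given above. A gene at 0 on 1 side was called only where the weighted count on the other exceeded 5. Kept cells held 7644436 to 9932649 UMIs per suffix. Intervals (95%) are exact Poisson for CPM, exact binomial for shares and Mantel-Haenszel for pooled ratios. No test was run and no p-value computed. Python 3.11.15, numpy 2.4.6, scipy 1.17.1, pandas 2.3.3 and scanpy 1.11.5 were used. edgeR 4.0.16 in R 4.3.3 served only for TMM factors. The scripts were tested on simulated data.

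Scrublet marked 27 of 5456 cells (0.495%), 4 of them Elane-high. At that share it is taken not to have worked, and doublets were not removed in the main values. Other limits of the rule, scalings, filters, thinning and leaving out each suffix were tried, with their effect given at the end. Genes named are the genes of the rule and the markers, the 10 highest and 10 lowest called genes of each comparison, from each list 3 genes taken by mean CPM and 3 more by size of ratio, any tested gene of the granulocyte precursor, primary granule and packaging lists, and the 10 genes most correlated with Elane, with further list members and the genes compared between suffixes named after their values were seen. The members, lists and comparisons were chosen with earlier results of these data known.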

Additional observations from a re-analysis of the deposited data

Results flagged for a closer look

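Barcodes above the mitochondrial limit were left out of the comparisons of the report and entered only the alternative without that limit. Many of them held abundant Elane. Of 208 barcodes with more than 10% mitochondrial UMIs, 58 met the limits for Elane and late granule genes (27.9%, exact binomial 95% interval 21.9 to 34.5), against 9.44% of kept cells (8.68 to 10.3). By suffix the shares were 13 of 43 (30.2%), 20 of 50 (40.0%), 14 of 71 (19.7%) and 11 of 44 (25.0%), against 13.6%, 18.5%, 3.94% and 4.27% of kept cells. The 58 barcodes had a median of 1967 UMIs and 16.2% mitochondrial UMIs. In suffixes 1 to 4, Ctsg stood at 16799, 16562, 9230 and 9610 CPM in the 58 barcodes, against 5859, 5654, 2801 and 2743 CPM in Elane-high cells. Malat1, a nuclear noncoding RNA, stood at 21144, 19041, 25498 and 28573 CPM against 5052, 5459, 7866 and 8437 CPM. Both were above the Elane-high cells in each suffix, as was Mpo. Ms4a3 was below them in each suffix, at 504, 708, 98.2 and 0 CPM against 968, 844, 383 and 228 CPM. Nkg7 was also below, at 38.8, 354, 0 and 0 CPM against 341.5, 382, 76.6 and 16.3 CPM. These levels rest on 13, 20, 14 and 11 shallow barcodes and are given without counting intervals. A level of 0 here does not show that a gene was silent. A narrow gap, such as 354 against 382 CPM, can be counting error. What these barcodes are was not tested.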

How the results depend on the processing

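Each comparison of the report was made within suffixes, so that its ratios are already pairs. Between genotypes and treatments, no paired analysis was possible because each group has 1 sample and the suffixes are not tied to samples. Of 162 alternative values of shares, counts and the cycling difference, 139 stayed within the spread or within 1.5 times, and 23 moved. Those that left out the 27 cells marked by Scrublet all stayed, but they removed so few cells that they could move little. The median share of Elane-high cells, 8.95%, was 21.7% with an Elane minimum of 0.5% and 2.10% with 2%. With minimums of 0.5% and 2%, genes higher than in other kept cells numbered 121 and 439 in place of 182, and genes higher than in cells with Cebpe 83 and 457 in place of 162. With 2%, where suffixes 1 and 2 (or suffix 2 alone, against late granule cells) had enough cells, 656 genes in place of 403 were lower than in cells with Cebpe, and 155 in place of 1035 were higher than in late granule cells. With a minimum mean of 20 CPM fewer genes were tested, and the counts of higher and lower genes were 95 and 231 against other cells, 76 and 205 against cells with Cebpe, and 144 and 332 against cells with Cd34 or Flt3 (260 and 667 before), while 353 in place of 537 were lower than in late granule cells. A pseudocount of 5 CPM left 105 genes higher than in cells with Cebpe. Against late granule cells, 667 genes were higher with the median of ratios, 605 with totals without the genes of the rule, and 671 on thinned cells, with 301 lower on thinned cells. Within Elane-high cells, 122 genes in place of 289 were lower in the upper Elane range on thinned cells, an alternative added after seeing the data, as were all those for this split. The cycling difference, -0.55 percentage points, was 11.0 points without thinning. Leaving out each suffix gave 191 to 212 higher and 493 to 592 lower genes against other cells, 180 to 218 and 423 to 529 against cells with Cebpe, 814 to 1296 and 510 to 594 against late granule cells, 284 to 305 and 660 to 770 against cells with Cd34 or Flt3, and 222 to 296 and 187 to 224 in the upper Elane range. For the moved values other than those from fewer genes or cells, the cause was not tested.

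Of 4720 alternative values for named genes and lists, 3 reversed: Rad51ap1 against other cells was 0.54 among cells without mitotic UMIs, Ifitm3 was 0.14 against cells low in monocyte and late granule genes, and Ms4a3 against late granule cells was 0.16 with an Elane minimum of 2%. The change of Ifitm3 was partly set in advance, because it is on the monocyte list that chose those compared cells. For called genes, 2357 of 2427 values kept direction and call. Elane-high cells of suffixes 3 and 4 are few, and a gene under 1.70 to 6.99 CPM can go unseen in them. With 1 sample per group and unknown suffixes, no value here carries an error between animals.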
